A study of Mus musculus with 8 samples.

Results

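The proteins that recognise or remove N6-methyladenosine (m6A) are themselves made from mRNAs that can carry the mark. The 10 mouse genes examined here were the YTH-domain readers Ythdf1, Ythdf2, Ythdf3, Ythdc1 and Ythdc2, the IGF2BP readers Igf2bp1, Igf2bp2 and Igf2bp3, and the demethylases Fto and Alkbh5. They were chosen by name and make up 10 of 21597 annotated coding genes. A peak was assigned to a gene when its summit, the base with the strongest enrichment, lay in an annotated exon of that gene (GENCODE M21, genome build GRCm38). By this rule 69 of 42744 deposited summits belonged to the 10 genes.

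The data came from m6A-RIP-seq, in which RNA fragments carrying m6A are pulled down with an antibody (IP) and compared with the RNA before pulldown (input). Primary mouse vascular smooth muscle cells (VSMCs), grown from the descending aorta of C57BL/6J mice aged 8 to 12 weeks, were transduced with lentivirus that expressed a control short hairpin RNA (shCTR, directed against a plant microRNA sequence) or a hairpin against Mettl14 (shMettl14). Both groups thus carried the viral vector, and a single knockdown hairpin was used, so that a hairpin effect and a Mettl14 effect cannot be told apart. Each group had 2 IP samples and 2 input samples, lettered A and B, and each IP sample had its own peak list. The labels do not say whether the letters mark separate cell preparations, so that the spread between lists may be technical. The knockdown could not be checked here, because the lists give no transcript levels and Mettl14 had no exonic summit in any list.

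m6A is written mainly by a nuclear complex around METTL3 and METTL14 at the sequence DRACH, in which A is the methylated base, D stands for any base but C, R for a purine and H for any base but G. YTHDF1, YTHDF2 and YTHDF3 are closely related cytoplasmic proteins that bind the methylated base and influence mRNA translation and decay. YTHDC1 acts in the nucleus, on splicing and export, and YTHDC2 carries a helicase domain and is best known from meiosis. The IGF2BP proteins stabilise bound mRNAs, and FTO and ALKBH5 remove the methyl group. In many transcripts m6A gathers near the stop codon and in long internal exons.

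The sequences below show DRACH letters near the summits, read from the GRCm38 genome on the strand of the mRNA, with the chosen DRACH motif in capitals and any other left in lower case. One motif is given for each region of a reader or eraser gene that was found in all 4 lists, namely the one nearest to the median summit. A region may hold several summits, and the motif shown need not lie at its strongest. The Ythdf3 motif, at -565 nt from the stop codon, and the downstream Ythdf2 motif, at -514 nt, do not lie at the strongest summits of their regions. The Ythdf1 motif lies at chr2:180911518-180911544 (minus strand). The Ythdf2 motifs lie at chr4:132205334-132205360 and chr4:132204611-132204637 in the coding sequence and at chr4:132186809-132186835 in the 3′ UTR (minus strand). The Ythdf3 motif lies at chr3:16204868-16204894 (plus strand).
Ythdf1 coding: aagcataacatGGACAttggtacttgg
Ythdf2 coding, upstream: ccatgattgatGGACAgtcagcttttg
Ythdf2 coding, downstream: actggaatctgAAACAtggccgggttt
Ythdf2 3′ UTR: cttaatttcatTGACTtcagagacaat
Ythdf3 coding: cagtgctggaaAAACTaaaggccataa

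The 3 Ythdf coding sequences were 70.4% to 71.9% identical over their aligned bases, so that positions could be compared between the genes. The letters GGACT, which form the DRACH variant often seen at strongly methylated sites, occurred in 1 copy in the long internal exon of each Ythdf gene. The following alignment was chosen after the values had been seen. The GGACT of Ythdf1 (chr2:180910957-180910983) and that of Ythdf2 (chr4:132204402-132204428) fell on the same aligned letters, at -308 and -305 nt from the stop codon, and Ythdf3 had the DRACH letters AGACT there, at -305 nt (chr3:16205128-16205154). A summit lay within 50 nt of this position in 2 lists for Ythdf1, 3 for Ythdf2 and 2 for Ythdf3, and within 100 nt in all 4 lists for each gene.
Ythdf1 at -308: aagtcccctgtGGACTacggcaccagc
Ythdf2 at -305: aaatctgctgtGGACTacaacacatgt
Ythdf3 at -305: aagtctgttgtAGACTataatgcttat

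The GGACT of Ythdf3 lay further upstream, at -1177 nt (chr3:16204256-16204282), within 50 nt of a summit in all 4 lists. The aligned letters were GGCCT in Ythdf1 (chr2:180911760-180911786) and GCACT in Ythdf2 (chr4:132205262-132205288), neither of which is DRACH. A summit lay within 50 nt of the aligned letters in 0 lists for Ythdf1 and in 1 list for Ythdf2, and within 100 nt in 3 and 4 lists, so that at the wider window the genes hardly differed. Capitals mark the GGACT and the letters aligned with it.
Ythdf3 at -1177: aaggcatgactGGACTgaaaattggtg
Ythdf1 at -1111: agggcatggttGGCCTgaagattgggg
Ythdf2 at -1165: aagggatggcaGCACTgaaactaggta

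The motif letters around the reader and eraser summits were as frequent as around other summits, or nearly so. DRACH on the mRNA strand lay within 50 nt of 61 of 61 of their summits in coding transcripts, against 95.2% of summits over all coding genes and 86.3% of windows of the same length tiled over 1 transcript per coding gene. GGACT was within the window of 19.7% of these summits, 21.0% of all summits and 9.97% of tiled windows. The tiled windows are the base rate of the letters, and a match does not show that a given A was methylated.

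Peaks of at least 1 list fell on 6 of the 10 transcripts, against a background of 25.5% of coding genes (5514 of 21597). Ythdf1, Ythdf2, Ythdf3 and Ythdc1 had an exonic summit in all 4 lists, or 4 of 10 genes, against a background of 16.1% of coding genes (3476 of 21597). Fto had summits in 3 lists and Alkbh5 in 1. Ythdc2, Igf2bp1, Igf2bp2 and Igf2bp3 had none in any list. A peak needs both a transcript and the mark, and for genes without peaks low expression and low methylation cannot be told apart in peak lists.

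**Figure D1:**
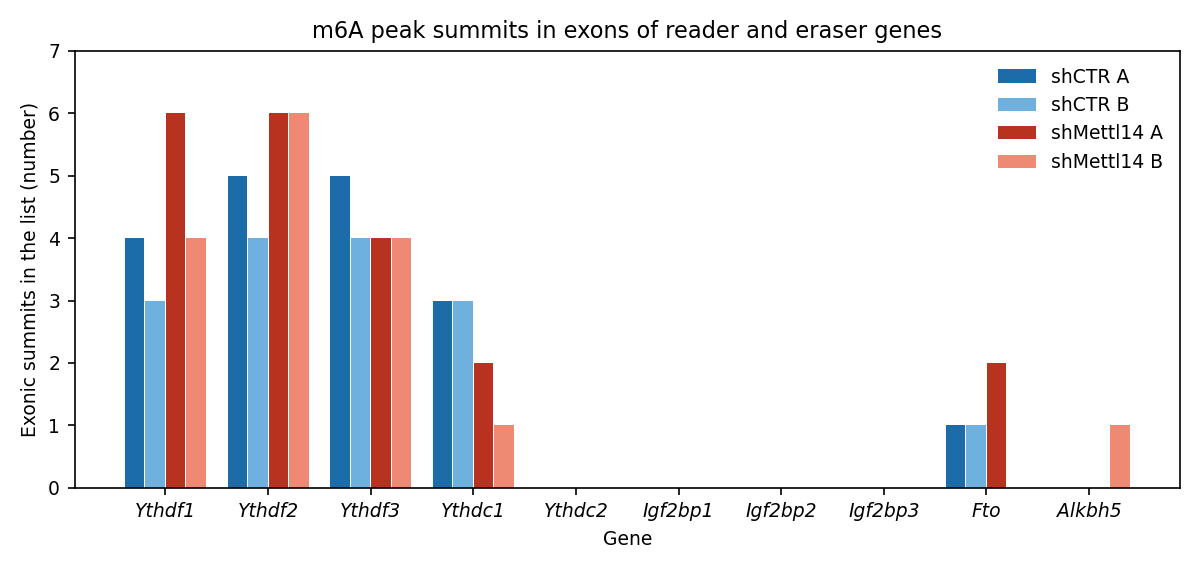
Number of exonic m6A summits (y axis) of each reader and eraser gene (x axis) in each of the 4 peak lists, blue for shCTR and red for shMettl14. Ythdf1, Ythdf2 and Ythdf3 hold 3 to 6 summits in every list, Ythdc1 1 to 3, and no bar is drawn for Ythdc2 and the 3 Igf2bp genes, which had 0 summits.

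The 10 genes together held 18 and 15 summits in the shCTR lists and 20 and 16 in the shMettl14 lists. The means were 16.5 ± 2.12 and 18 ± 2.83 summits (SD, n = 2 lists each), a difference of 1.5 that was smaller than the spread between lists (exact permutation test, two-sided p = 0.667, where 2 against 2 lists can give no p under 0.333). The lists differ in length, with 11158 and 8655 summits over all genes in shCTR A and B and 13675 and 9256 in shMettl14 A and B. The summits lay in 10, 9, 9 and 8 distinct intervals in the same order of lists, so that by intervals shMettl14 had the lower mean (8.5 ± 0.707 against 9.5 ± 0.707).

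Ythdf1, Ythdf2 and Ythdf3 were among the genes with many summits. The median was 1.75 summits per list over the coding genes found in all lists, and 3 over those with an internal exon over 1000 nt. Ythdf2 averaged 5.25 summits per list, and 93.9% of the 3476 coding genes found in all lists had fewer. Ythdf1 and Ythdf3 each averaged 4.25, above 89.2% of those genes, and Ythdc1 averaged 2.25, above 60.6%. Most of these summits lay in the long internal exon that encodes the greater part of each YTHDF protein. This exon held 17 of 17 summits of Ythdf1 (exon 5, 1521 nt), 17 of 21 of Ythdf2 (exon 4, 1584 nt) and 16 of 17 of Ythdf3 (exon 5, 1599 nt). It ends -25, -22 and -22 nt from the stop codon, so that the stop codon itself lies in the last exon of each gene.

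**Figure D2:**
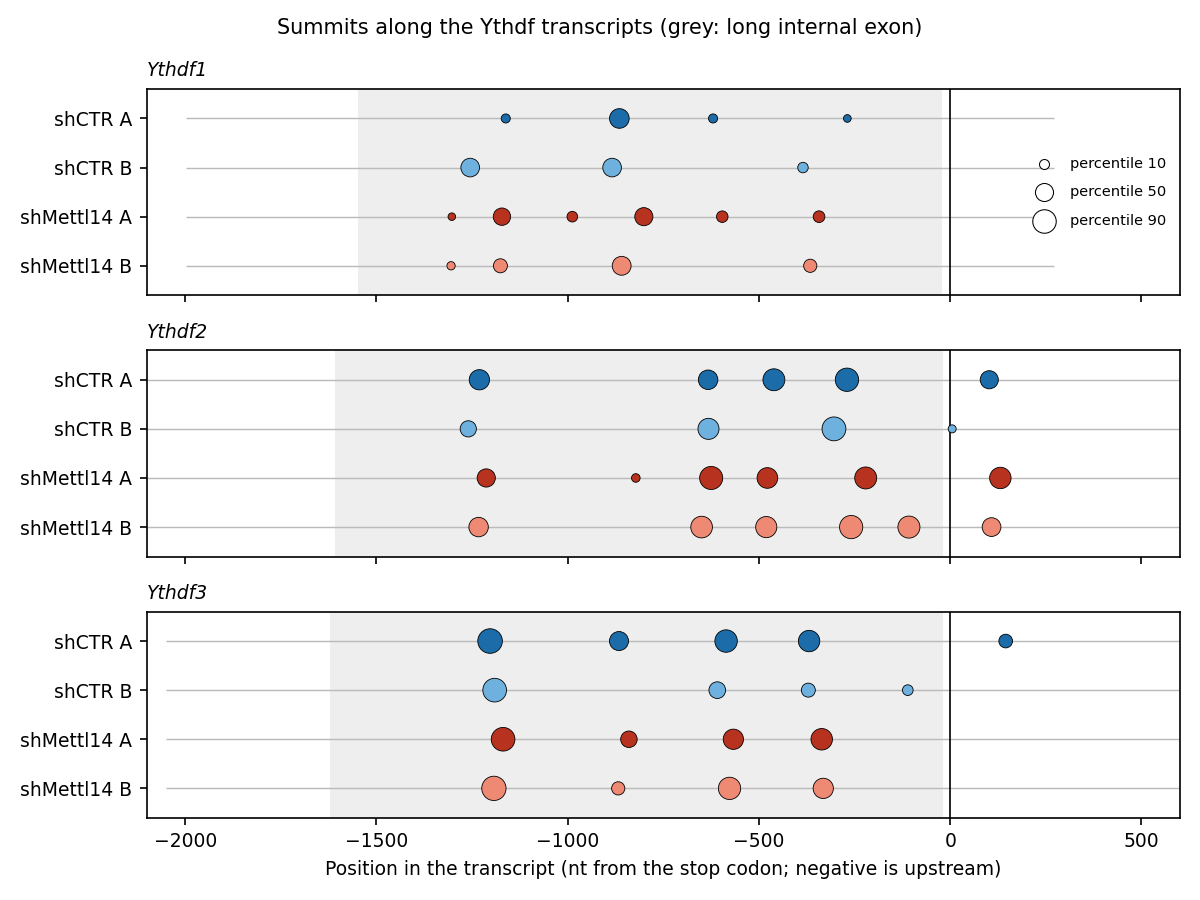
Summits of Ythdf1, Ythdf2 and Ythdf3 along the coding transcript (x axis, nt from the stop codon at 0), with 1 row per peak list and larger circles for a higher percentile of fold enrichment within the list. Grey marks the long internal exon, which holds all Ythdf1 summits and all but 4 of Ythdf2 and 1 of Ythdf3.

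To follow individual peaks, summits within 75 nt of each other were linked into sites. The 69 summits formed 27 sites, and 8 sites were found in all 4 lists: 2 in Ythdf1, 3 in Ythdf2 and 3 in Ythdf3. Strength is given in 3 ways. The percentile is the rank of the fold enrichment of a summit among all summits of its list, the fold enrichment is the deposited ratio of IP over background, and the number of fragments is the IP pileup at the summit recovered from the deposited values.

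The site with the highest mean percentile of these genes lay in Ythdf3, at -1203 to -1169 nt from the stop codon (chr3:16204243-16204277, exon 5). The Ythdf2 site at -304 to -221 nt stood above it in shCTR B, and by fragments also in shCTR A. The percentiles of the Ythdf3 site were 99.4 and 91.5 in shCTR A and B and 91.3 and 96.9 in shMettl14 A and B. The fold enrichments were 25.4, 16.2, 13.9 and 20.3, from 49, 33, 36 and 34 fragments. shCTR A was highest by each measure, and the groups overlapped. This is the site at which the GGACT of Ythdf3 lies. Its 2 neighbours in all 4 lists, at -609 to -567 nt and at -371 to -332 nt, were of middle rank, and both were lowest in shCTR B, at percentiles 41.6 and 27.1, against 64.8 to 81.5 in the other lists.

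In Ythdf2 the site at -304 to -221 nt (chr4:132204331-132204414, exon 4), next to the GGACT shared with Ythdf1, ranked highest in 3 lists. In shMettl14 A the site at -650 to -625 nt ranked above it. The percentiles of the former were 88.7 and 93.0 in shCTR and 77.8 and 87.7 in shMettl14. The pileups were 51 and 54 fragments against 35 and 31, with exact Poisson 95% intervals, which cover counting error only, of 38.0 to 67.1, 40.6 to 70.5, 24.4 to 48.7 and 21.1 to 44.0. These counts are not scaled. The highest summit pileups of the regions in all 4 lists summed to 265042 fragments in shCTR and 216025 in shMettl14. Ranked by pileup within its list, the Ythdf2 site stood at percentiles 94.1 and 94.8 in shCTR and 90.5 and 88.7 in shMettl14. Both shMettl14 lists were below both shCTR lists, and the intervals of the 2 groups overlapped. The Ythdf2 site at -650 to -625 nt went the other way by fold enrichment, with percentiles of 59.6 and 70.7 in shCTR and 86.4 and 75.3 in shMettl14, from 29 and 31 fragments in shCTR and 30 and 20 in shMettl14. Ranked by pileup it overlapped between the groups, at 78.4 and 80.7 in shCTR and 86.3 and 72.0 in shMettl14. The Ythdf2 site at -1260 to -1213 nt was of middle rank, at percentiles 38.9 to 65.0.

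Ythdf2 was also the only Ythdf gene with summits in the 3′ UTR in all 4 lists. In shCTR A and both shMettl14 lists the summit lay at 102 to 131 nt past the stop codon, with percentiles of 50.5, 73.7 and 54.5. In shCTR B it lay at 5 nt past the stop codon, with a percentile of 3.72 from 8 fragments. In Ythdf3 a peak of 3 lists spanned the start of the last exon. Its exonic summit, at 145 nt past the stop codon, was seen in shCTR A, while its other summits lay 14 to 42 nt inside the preceding intron.

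Ythdf1 ranked lower than the other Ythdf genes. Its strongest site, at -884 to -801 nt (chr2:180911463-180911546, exon 5), stood at percentiles 60.5, 53.8, 50.5 and 55.4 in shCTR A, shCTR B, shMettl14 A and shMettl14 B, from 15 to 23 fragments. In shCTR B the list gives the same values, 20 fragments and percentile 53.8, for a summit at -1255 nt. The site at -385 to -269 nt, near the aligned GGACT, was low in every list, at 2.79 and 11.8 in shCTR and 16.5 and 23.1 in shMettl14, from 22 and 12 fragments in shCTR and 12 and 10 in shMettl14. The recovered background there was 4.85 fragments in shCTR A and 0.845 to 1.53 in the other lists, and its part in the lower rank of shCTR A was not tested. Ranked among the highest summits of the 3476 genes found in all lists, Ythdf1 stood at percentiles 17.7 to 31.8, Ythdf2 at 62.7 to 84.5 and Ythdf3 at 73.7 to 98.3.

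Ythdc1 differed from the Ythdf genes in the kind of exon that carried its peaks. Of its 9 summits, 8 lay outside the exons of the coding transcript used here. They fell in exon 11 of a transcript annotated as a target of nonsense-mediated decay, in which this exon runs on to 1525 nt (chr5:86827955-86829479), where exon 11 of the coding transcript ends after 167 nt. These summits thus lay in sequence beyond the end of the coding exon. They rested on few fragments, 7 to 20 per summit. The site nearest the end of the long exon, at chr5:86829370-86829414, was found in shCTR A and B and in shMettl14 A, at percentiles 50.5, 47.6 and 89.0. The site at chr5:86828347-86828379 was found in shCTR A and B and in shMettl14 B, at percentiles 84.1, 40.9 and 49.4.

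No single Ythdc1 site was present in all 4 lists. The gene counted 3 and 3 summits in the shCTR lists and 2 and 1 in the shMettl14 lists. Its highest percentile was 84.1 and 89.0 in the lists lettered A and 47.6 and 49.4 in those lettered B, which are the lists with fewer summits over all genes. A summit that a list lacks may have fallen below the threshold of the caller, and whether a loss could be detected at 7 to 20 fragments was not tested.

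Of the demethylases, Fto had summits in exon 3, a coding exon of 619 nt (region chr8:91409419-91409758). Its highest percentile was 49.7 in shCTR A, 1.71 in shCTR B and 48.2 in shMettl14 A, from 10 to 22 fragments, and shMettl14 B had no summit. Alkbh5 had a lone summit in the 5′ UTR, in shMettl14 B, at chr11:60538388, with a percentile of 2.66 and 9 fragments. Neither gene had an interval in the deposited overlap files, although the Fto intervals of shCTR A and B shared bases.

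Of the 10 genes, only Ythdf1, Ythdf2 and Ythdf3 had an internal exon over 1000 nt in the coding transcript, and genes with and without peaks were among the rest. The longest internal exon of the coding transcript was 427 nt in Ythdc1, 619 nt in Fto and 156 nt in Alkbh5, which had peaks, and 293 nt in Ythdc2, 282 nt in Igf2bp1 and Igf2bp3 and 252 nt in Igf2bp2, which had none. Igf2bp1 has a long 3′ UTR of 6337 nt, and no summit lay in it. Over all coding genes, 53.8% of the 1048 genes with an internal exon over 1000 nt had a summit in all 4 lists, against 14.2% of the other 20549 genes.

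**Figure D3:**
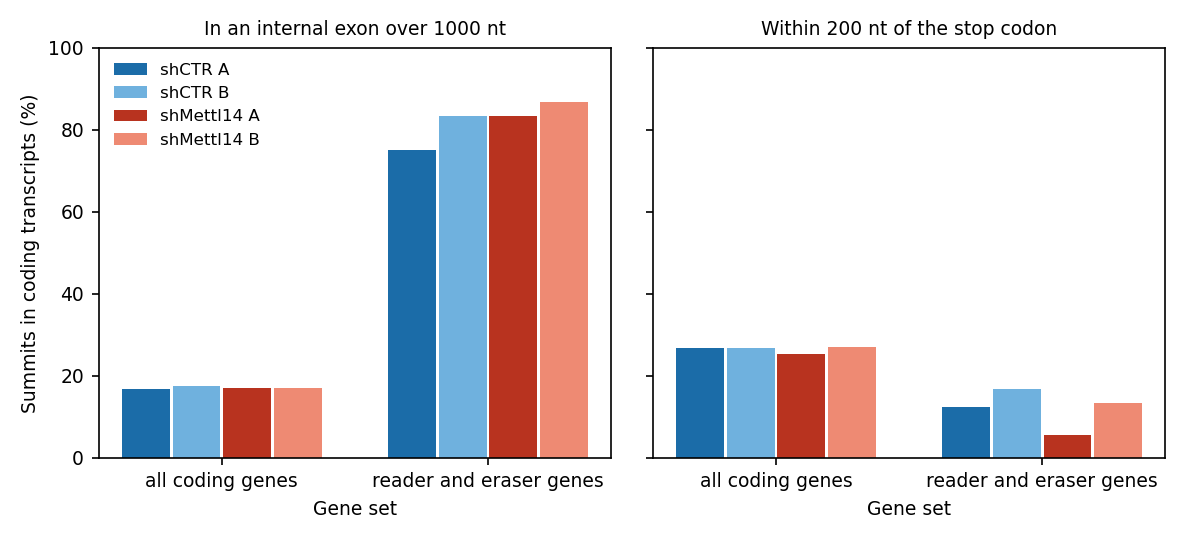
Share of summits in coding transcripts (y axis, %) that lay in an internal exon over 1000 nt (left) or within 200 nt of the stop codon (right), for all coding genes and for the reader and eraser genes in each peak list (bars). In every list the reader and eraser genes had the larger share in long internal exons and the smaller share near the stop codon.

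As a description, a larger share of the summits of these transcripts lay in long internal exons, and a smaller share near the stop codon, than over all coding genes. Summits in internal exons over 1000 nt made up 75%, 83.3%, 83.3% and 86.7% of the reader and eraser summits in coding transcripts in shCTR A, shCTR B, shMettl14 A and shMettl14 B, against 16.9% to 17.4% over all coding genes. The group means were 79.2% ± 5.89 in shCTR and 85.0% ± 2.36 in shMettl14 (SD, n = 2 lists each). Within 200 nt of the stop codon lay 14.6% ± 2.95 of the summits in shCTR and 9.44% ± 5.50 in shMettl14, against 26.8% and 26.2% over all coding genes. The shares rest on 12 to 18 summits per list from at most 6 genes, and nearly all of these summits lay in Ythdf genes. No test was made of the shares, since summits of a gene are not independent.

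The question of the design was how the marks on these transcripts changed after Mettl14 knockdown. Of the 11 merged regions of the reader and eraser genes, 5 were found in all 4 lists, against 43.4% of 11361 merged regions over the genome. None was found in both shCTR lists and neither shMettl14 list (background 1.71%), and none in both shMettl14 lists and neither shCTR list (background 1.79%). Presence thus showed neither a site lost in both shMettl14 lists nor a site gained in both.

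The ranks of the regions were compared with limma over 4929 regions found in all 4 lists. A region was ranked within its list by its highest fold enrichment. Ranks were mapped to normal scores, a scale on which 1 unit is 1 SD of a standard normal distribution. None of the 5 regions of Ythdf1, Ythdf2 and Ythdf3 had an adjusted p under 0.05, where 0 of 4929 regions did (background 0%) and 243 had an unadjusted p under 0.05 (4.93%). The Ythdf3 long exon region changed by -0.44 ± 0.53 (shMettl14 minus shCTR, SE, n = 2 lists each, limma adjusted p = 0.999). The upstream Ythdf2 regions changed by -0.29 ± 0.50 and 0.07 ± 0.50 and the Ythdf1 region by -0.11 ± 0.50 (limma adjusted p = 0.999 for each). The median change was -0.11 over the 5 regions and 0.00 over all regions. Ranks would not register an equal loss of m6A from every transcript.

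The Ythdf2 region over the stop codon and 3′ UTR (chr4:132186737-132187088) was higher in both shMettl14 lists than in both shCTR lists, by 1.31 ± 0.55 (limma unadjusted p = 0.0269, adjusted p = 0.951). Such a rise without overlap was found in 17.0% of the regions in all 4 lists and such a fall in 15.8%. The value rested on shCTR B, in which the summit lay at another position. Without shCTR B the change was 0.46 ± 0.67 (limma unadjusted p = 0.492). Fisher's exact test was run on the highest summit pileup of a region in each list, with the lists of a group summed. Other summits of a region were not counted. For this region it set 20 fragments in shCTR against 21 in shMettl14, a log2 ratio of 0.37 after scaling to all regions (unadjusted p = 0.436, adjusted p = 1).

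That test, which treats fragments and not cultures as units, gave an adjusted p under 0.05 for 0 of 4929 regions and an unadjusted p under 0.05 for 127. For the Ythdf2 region with the strongest site it set 105 fragments in shCTR against 66 in shMettl14, a log2 ratio of -0.37 after scaling to all regions (unadjusted p = 0.106). For the Ythdf3 region it set 82 against 70 fragments, a log2 ratio of 0.07 (unadjusted p = 0.807).

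**Figure D4:**
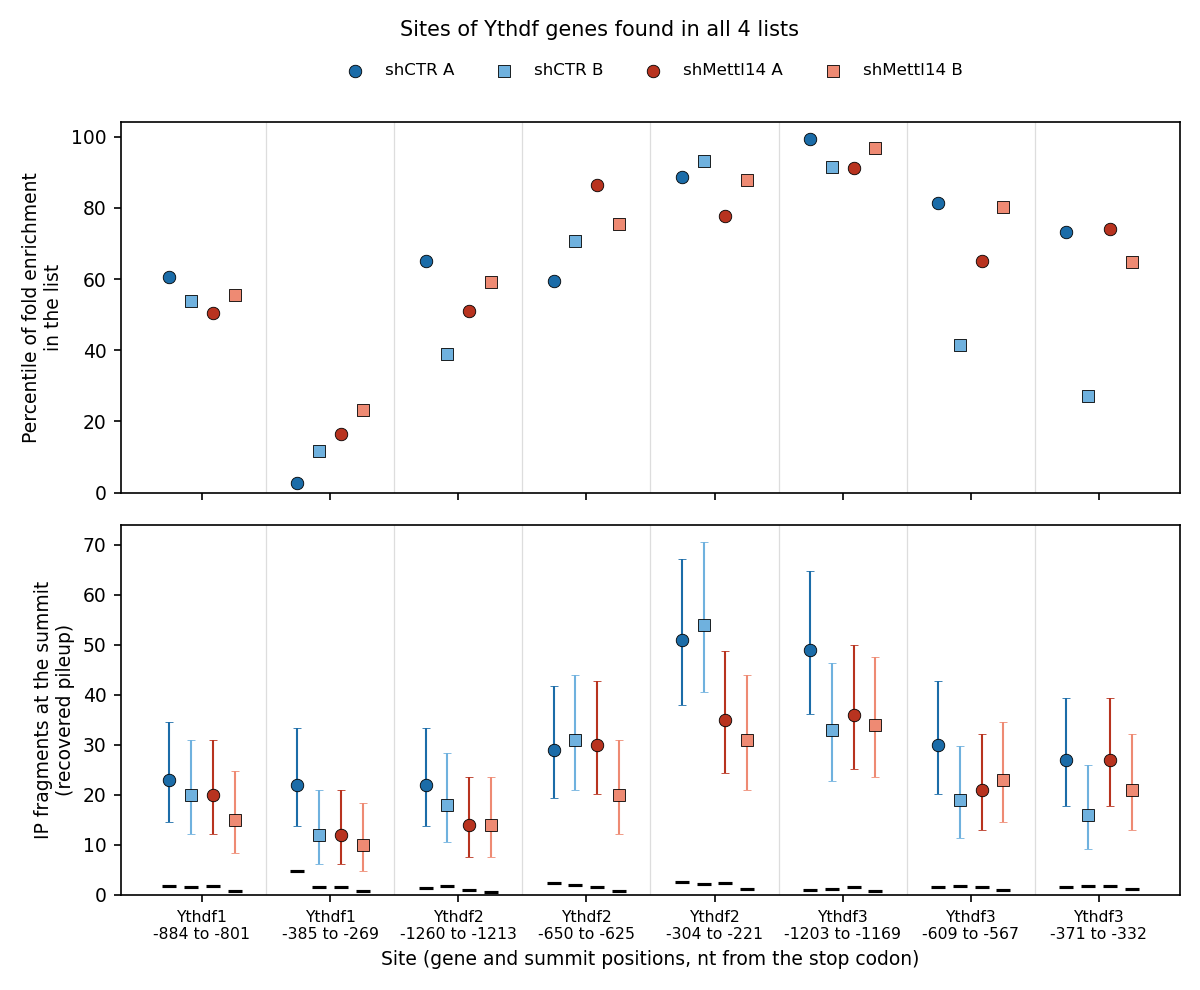
Percentile of fold enrichment within the list (upper panel) and recovered IP fragments at the summit with exact Poisson 95% intervals (lower panel, short black lines give the background) at the 8 Ythdf sites found in all 4 lists, in shCTR (blue) and shMettl14 (red). The Ythdf3 site at -1203 to -1169 nt stands above percentile 91 in each list, and the Ythdf2 site at -304 to -221 nt holds 51 and 54 fragments in shCTR and 35 and 31 in shMettl14.

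At the level of single sites, 3 of the 8 sites in all 4 lists did not overlap between the groups. The Ythdf1 site at -385 to -269 nt and the Ythdf2 site at -650 to -625 nt were higher in both shMettl14 lists, by 12.5 and 15.7 percentile points on average. The Ythdf2 site at -304 to -221 nt was lower, by a mean change of -8.13 points. Over all 5323 sites in all 4 lists 17.6% were higher without overlap and 15.4% lower, so that 2 and 1 of 8 stand near the background. By limma on normal scores none of the 8 sites had an adjusted p under 0.05, where 0 of 5323 sites did (0%) and 279 had an unadjusted p under 0.05 (5.24%). The lowest adjusted p of the 8 was 0.971.

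With 1 value per gene, none of Ythdf1, Ythdf2, Ythdf3 and Ythdc1 passed the threshold, where limma called 0 of 3476 genes (0%) and gave 178 an unadjusted p under 0.05 (5.12%). The changes in normal scores were -0.12 ± 0.47 for Ythdf1, -0.30 ± 0.47 for Ythdf2, -0.46 ± 0.53 for Ythdf3 and 0.14 ± 0.53 for Ythdc1 (SE, limma adjusted p = 0.993 for Ythdf3 and 0.998 for the others). Each change was smaller than its SE.

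The deposited overlap files, which the authors described as peaks shared by both replicates and which give no value per interval, held intervals in exons of 4 of the 10 genes for shCTR and 3 for shMettl14, out of 6706 and 6440 intervals in all. Their intervals are not exact intersections of the deposited lists, and the settings behind them are not stated, so that 0 intervals does not mean that no peak was shared. Ythdf1, Ythdf2 and Ythdf3 were in both files, with 2, 3 and 4 intervals for shCTR and 2, 4 and 4 for shMettl14. Ythdc1 had 2 intervals for shCTR and 0 for shMettl14. In the peak lists the shMettl14 summits of Ythdc1 lay at different sites in A and B.

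The same rule was applied to other genes of the pathway, from lists made with earlier results of these data known, and is read against the background of 16.1% of coding genes with a summit in all 4 lists. Of 8 genes of the writer complex, 6 had a summit in all 4 lists: Wtap, Virma, Rbm15, Rbm15b, Zc3h13 and Cbll1, the regulatory subunits and adaptors of the complex. Rbm15, an RNA-binding adaptor, had the most, with 9, 6, 9 and 8 summits in shCTR A, shCTR B, shMettl14 A and shMettl14 B. The catalytic subunit Mettl3 and its partner Mettl14 had 0 in every list. Of 5 other methyltransferases and their regulators 0 had a summit in all lists. Of 10 other RNA-binding proteins reported to recognise m6A, 2 did: Prrc2a, with 3 to 6 summits, and the translation initiation factor subunit Eif3a, with 4 or 5. Of 11 decay and deadenylation partners of the YTH readers, among them the subunits of the CCR4-NOT deadenylase, 0 did, and Upf1 alone had a summit, in 1 list.

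The labelled cell type could be checked only through genes with peaks. Of 6 smooth muscle markers 1, Myh11, had an exonic summit, in 3 lists, and Acta2, Tagln, Cnn1, Smtn and Myocd had none. Of 3 endothelial markers Pecam1 and Cdh5 had summits in all 4 lists. Per the methods, the endothelium was scraped from the aortas before culture. Pdgfra, of 3 fibroblast markers, had summits in all 4 lists, and the authors name it among m6A-modified genes of these cultures. Neither leukocyte marker had any summit. Over all coding genes 16.1% had a summit in all 4 lists and 25.5% in any list. Presence of a peak is not a transcript level, and the part of other cells in the reader and eraser peaks was not tested.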

How the data were processed

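Per the labels and methods, the authors mapped IP and input reads to mm10 (GRCm38) with STAR. SAMtools was used to select unique alignments, and MACS2 to find peaks of an IP sample over the corresponding input (versions and options are not given in the sources used here). The deposited lists give, per summit, the fold enrichment (a ratio to background) and -log10 p and -log10 q values (lowest 2.01). The 2 overlap files the authors deposited hold coordinates only. Total read counts were not analysed here.

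Fold enrichments rest on different backgrounds and were ranked within a list. Pileup and background were solved from fold enrichment and p, and a whole-number pileup fitted 100% of summits within 0.0003 in -log10 p. Median pileups of 13 to 16 fragments limit the precision. Intervals sharing 1 bp were merged into regions. The 75 nt limit for sites was chosen after seeing the data. Groups were compared by limma 3.58.1 (R 4.3.3, lmFit and eBayes, two-sided, Benjamini-Hochberg over all features, no replicate block). Fisher's exact test and permutations used scipy 1.17.1, and coding sequences were aligned with Biopython 1.88. Pileup recovery and the limma fit were tried on simulated data, and Fisher's test and the permutation test were not.

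Positions refer, per gene, to the GENCODE M21 transcript with the longest coding sequence, in 1-based coordinates and in nt from the first base of the stop codon. All 10 genes are named by rule, with writer complex genes and up to 6 others found in all lists. Members and lists were chosen with earlier results of these data known. Alternatives were other rank measures, merging rules, thresholds, list sizes and stop codon windows, a replicate block and leaving out each list.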

Additional observations from a re-analysis of the deposited data

How the results depend on the processing

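No call in these genes changed under the alternatives run: 0 of the regions of the reader and eraser genes and 0 of their 4 genes had an adjusted p under 0.05. Over all features the count of 0 rose to 3 of 4929 regions and 1 of 5323 sites without shMettl14 A, none of them in these genes. With -log10 q of at least 3 only 4 of the 5 regions could be tested, without the Ythdf2 3′ UTR region, and Fisher's exact test and the site comparison were run on regions and sites, not on genes. With 2 lists per group and 13 to 16 fragments at a median summit, the precision of any single change was low. Signs of small changes did turn. With ranks of the recovered pileup, the Ythdf3 long exon region changed by 0.10 and the Ythdf2 region chr4:132205258-132205576 by -0.27. The latter changed by -0.11 with ranks of -log10 p, and Fisher's test gave log2 ratios of 0.0668 and -0.22 for these regions. With the mean percentile over summits, Ythdf2 changed by 0.28 and Ythdf3 by 0.53. When each list was left out in turn, the change ranged from -0.32 to 0.0905 for the Ythdf1 region, from -1.02 to 0.14 for the Ythdf3 region, from -0.20 to 0.35 for that Ythdf2 region, from -0.42 to 0.70 for the Ythdc1 gene, from -0.35 to 0.10 for the Ythdf1 gene and from -1.08 to 0.15 for the Ythdf3 gene. Without a turn of sign it ranged from -0.51 to -0.07 for the Ythdf2 region chr4:132204107-132205057, from 0.46 to 2.15 for the Ythdf2 3′ UTR region and from -0.53 to -0.07 for the Ythdf2 gene. The cause was not tested.

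The difference in summit number, 1.5, was -1 by intervals, -1 with the 8655 strongest peaks per list, 0 with -log10 q of at least 3, and -0.5 to 3.5 when a list was left out. The number of genes in all 4 lists stayed between 3 and 5: it was 3 by exons of the coding transcript, without Ythdc1, and 5 without shMettl14 B, with Fto added. The difference in the share near the stop codon ranged from -9.03 to -0.556 percentage points. Lists with the same letter deviated together only weakly (correlation 0.0795 over regions and 0.0890 over genes). With few lists and low fragment counts this cannot tell whether they were paired, and the labels do not say. With the letter as a replicate block, 0 of the 5 regions and 0 of the 4 genes had an adjusted p under 0.05, as without it. Over all features the block gave 292 regions and 222 genes an unadjusted p under 0.05, against 243 and 178 without it.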
